A study of Mus musculus with 6 samples.

Results

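Fatty acid synthesis, desaturation and oxidation were followed through 37 genes, chosen as the rows of the deposited count table whose GRCm38 gene symbol is on a list of the pathway's enzymes and of 1 regulator. All 37 were found among the 55421 genes of the table, and all 37 passed the filter on low counts, which left 13853 genes to test. The list holds 11 genes of synthesis and desaturation (Acaca, Acacb, Fasn, Scd1, Scd2, Elovl1, Elovl5, Elovl6, Elovl7, Fads1 and Fads2) and 4 acyl-CoA synthetases (Acsl1, Acsl3, Acsl4 and Acsl5). It also holds 21 genes of fatty acid oxidation: 3 of the carnitine shuttle (Cpt1a, Cpt2 and Slc25a20), 14 of mitochondria and 4 of peroxisomes. Of the peroxisomal genes, Eci2 is also mitochondrial. The last member, Pdk4, encodes a kinase of the pyruvate dehydrogenase complex.

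RNA was sequenced from 6 wells of wild-type mouse macrophages grown from bone marrow with M-CSF, the growth factor that drives marrow cells to become macrophages. In 3 wells, here called untreated, the cells stayed in RPMI-1640 with 10% serum, 20 ng/mL M-CSF and, as antibiotics, 1% penicillin/streptomycin. The other 3 wells received the same medium together with an equal volume taken from cultures of LL-2, a mouse Lewis lung carcinoma line, so that 50% of the volume was conditioned medium. All wells were lysed after 24 h. The comparison asks how the transcripts of these macrophages differ in tumour-cell conditioned medium. Medium conditioned by other cells was not analysed here, and the effect of tumour-cell products cannot be told apart from that of a smaller share of fresh medium.

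Cells build fatty acids from acetyl-CoA that is carboxylated to malonyl-CoA and extended by fatty acid synthase, and elongases and desaturases then lengthen the chains and add double bonds. Fatty acids are used only after an acyl-CoA synthetase has attached them to coenzyme A. For oxidation, the carnitine shuttle carries long chains into mitochondria, where dehydrogenases, hydratases and thiolases shorten them and pass electrons to the respiratory chain through the electron transfer flavoproteins, while peroxisomes shorten very long and branched chains. In macrophages, synthesis is widely described in inflammatory activation and oxidation in alternative activation.

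The libraries held 24179548 to 25916709 counts in the untreated wells and 28447825 to 30040682 in conditioned medium. All 3 conditioned-medium libraries were thus larger than all 3 untreated ones. At this depth 3 counts correspond to 0.0999 to 0.124 CPM, the unit used below for counts scaled to library size. The 8 macrophage markers checked, among them Csf1r and Adgre1, were all tested and summed to 56239 to 63590 CPM in untreated wells and 63179 to 67727 CPM in conditioned medium, with 3 of them higher and 4 lower. All marker sums here were scaled to the total count alone. The gene values below were also divided by a TMM factor, 0.963 to 0.990 untreated and 1.015 to 1.024 in conditioned medium. Without it, the sums in conditioned medium stand somewhat higher relative to untreated wells. Markers of cells with an active fatty acid metabolism of their own were near 0: 0 of 7 adipocyte markers could be tested, with sums of 0.232 to 0.414 and 0.281 to 0.503 CPM and Plin1 and Lep at 0, and 0 of 3 hepatocyte markers, with Ttr at 0. Of 5 epithelial or carcinoma markers 1 could be tested, and their sum was 0.786 to 1.18 CPM untreated and 0.598 to 1.43 CPM in conditioned medium. Marker sums of other cell types were lower without overlap or overlapped between the groups, and none of their tested markers rose. The sums were lower in conditioned medium for dendritic cells and mast cells or basophils: 107 to 197 against 29.8 to 55.7 CPM for 6 dendritic cell markers, of which 3 fell, and 14.2 to 22.6 against 4.18 to 9.15 CPM for 6 mast cell or basophil markers, of which 5 fell. For 6 T, B or NK cell markers the sum was 4.67 to 5.62 against 3.20 to 3.99 CPM, and 1 fell. For 7 neutrophil markers the sum was 342 to 480.0 CPM untreated and 442 to 523 CPM in conditioned medium, with 1 lower, and for 6 fibroblast or stromal markers it was 16.3 to 66.4 and 32.2 to 95.6 CPM, with none past the test. Both of these sums overlapped between the groups. The part of these cell types in the results below was not tested. In such bulk samples, fewer cells of a type and less RNA per cell cannot be told apart.

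Of the 37 members, 7 rose and 4 fell in conditioned medium (edgeR quasi-likelihood test, Benjamini-Hochberg adjusted p under 0.05 over all 13853 genes). These 11 make 29.7% of the members, close to the background of 27.9% of all tested genes, 12.6% higher and 15.2% lower. The members that rose were Scd2, Fads1, Acsl3, Slc25a20, Hadh, Etfdh and Pdk4. Elovl1, Acsl1, Acsl5 and Acadl fell. The changes were small: the median log2 fold change of the members was 0.038, against 0.013 for all tested genes, and the median size of the change, whatever its direction, was 0.13 against 0.17. Against a minimum change of 1.5-fold (edgeR's glmTreat, adjusted p under 0.05), 0 members passed, beside 3.49% of all tested genes. By the same test, 1 member, Pdk4, had an unadjusted p under 0.05. The wells of the 2 groups did not overlap for 15 members, against 42.8% of all tested genes. Without scaling beyond the total count, the background was 2656 genes higher and 1710 lower, against 1749 and 2112 with the scaling used here. The labels do not tie the wells to different animals. The p-values then reflect only how far these wells scatter, and that scatter may be technical.

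**Figure D1:**
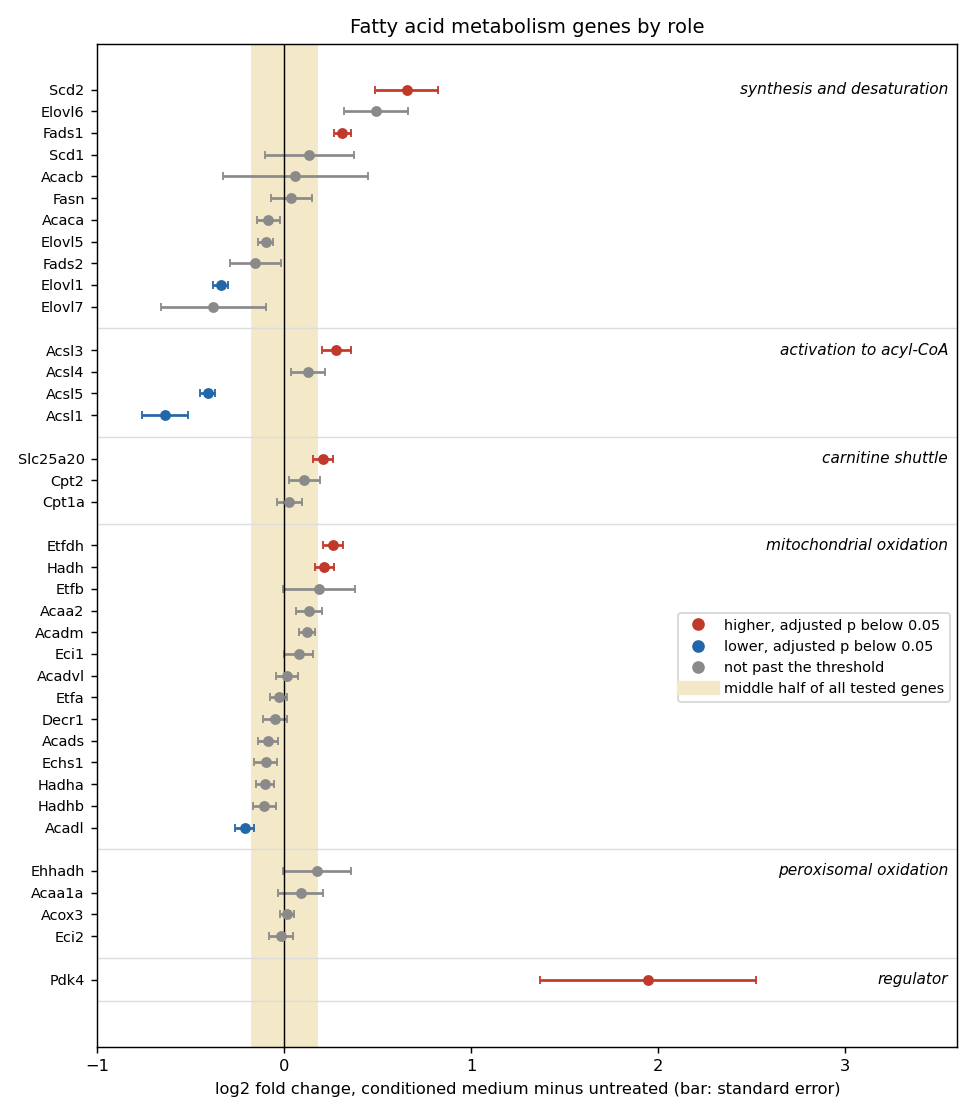
Change of each member by role, as the log2 fold change of conditioned medium minus untreated with its standard error, 3 wells per group. Red points rose, blue points fell and grey points did not pass the adjusted p threshold, and the shaded band from -0.17 to 0.17 holds the middle 50% of all tested genes. Most members lie within or beside the band, and Scd2, Acsl1 and Pdk4 lie farthest from 0 among those that passed.

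The synthesis and the oxidation genes both had medians close to that of all tested genes. Of 11 synthesis and desaturation genes, 2 rose and 1 fell (27.3%), with a median log2 fold change of 0.038 and a range of -0.38 to 0.65. That median has no stable sign: it was -0.0407 with limma-voom and -0.104 to 0.107 when 1 library was left out, and only 1 gene was higher without untreated well 1 or 2. Of the 21 genes of the carnitine shuttle and oxidation, 3 rose and 1 fell (19%), with a median of 0.026 and a range of -0.21 to 0.26. Neither share was far from the background, and each list had members on both sides of 0. The sum over the synthesis genes was 536, 559 and 600 CPM in the untreated wells and 588, 594 and 707 CPM in conditioned medium. The groups overlapped, the highest well in each was number 3, and for each number the conditioned-medium well was above the untreated one. For the oxidation genes the sum was 1279, 1326 and 1343 CPM untreated and 1320, 1327 and 1331 CPM in conditioned medium, within the untreated range in all 3 wells.

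At the entry to synthesis no change was detected. Acaca, the cytosolic acetyl-CoA carboxylase, was measured at 43.6, 44.6 and 46.1 CPM in untreated wells and 41.5, 39.2 and 45.8 CPM in conditioned medium (log2 fold change -0.09, SE 0.06, adjusted p = 0.356). Its 95% interval ran from -14.5% to 3.93%. Acacb, the carboxylase on the outer face of mitochondria whose malonyl-CoA restrains the carnitine shuttle, was barely expressed, at 0.534 ± 0.075 and 0.558 ± 0.227 CPM (SD, n = 3 each). Fasn, fatty acid synthase, had 74.9, 72.1 and 88.7 CPM untreated and 75.2, 72.2 and 94.8 CPM in conditioned medium (log2 fold change 0.04, SE 0.11, adjusted p = 0.831, 95% interval -13.4% to 21.8%). Both groups spanned nearly the same range for Fasn, with well 3 the highest in each.

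The stearoyl-CoA desaturases put the double bond into oleate and palmitoleate, and in untreated wells Scd2 stood at 23.0 and Scd1 at 0.705 CPM per kb of exon. Scd2 (ENSMUSG00000025203, chromosome 19, 44293674 to 44306864, GRCm38) was at 103, 131 and 144 CPM in the untreated wells and 165, 174 and 255 CPM in conditioned medium. Every conditioned-medium well was above every untreated well, and well 3 was the highest in both groups. Scd2 rose 1.57-fold, from a mean of 126 ± 20.9 CPM to 198 ± 49.4 CPM (SD, n = 3 each, edgeR log2 fold change 0.65, SE 0.17, adjusted p = 0.0172), and within wells of the same number the ratio was 1.60, 1.34 and 1.77. The call was lost without untreated well 1 (adjusted p = 0.0623) or untreated well 2 (adjusted p = 0.0528), and with the replicate number as a block the adjusted p was 4.9e-07. Scd1, whose start lies 114 kb from that of Scd2 on the same chromosome, had 3.22, 2.56 and 4.57 CPM untreated and 3.54, 3.12 and 4.72 CPM in conditioned medium. That difference did not pass (log2 fold change 0.13, SE 0.24, adjusted p = 0.726), and its 95% interval, -24.4% to 59.1%, includes the change of Scd2. There were 32.0, 51.0 and 31.5 times as many Scd2 as Scd1 counts in the untreated wells and 46.6, 55.9 and 54.0 times as many in conditioned medium, ranges that overlap.

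Of the desaturases that make polyunsaturated fatty acids, Fads1 (delta-5 desaturase, chromosome 19, 10182888 to 10196877) rose and Fads2 (delta-6 desaturase) did not pass the test. Fads1 had 95.8, 98.7 and 103 CPM untreated and 119, 126 and 123 CPM in conditioned medium. The groups were well separated, and Fads1 rose 1.24-fold (log2 fold change 0.31, SE 0.05, adjusted p = 0.000892). Fads2, which starts 81.1 kb away on the other strand, had 7.61, 6.57 and 8.58 CPM untreated and 7.28, 5.91 and 7.26 CPM in conditioned medium (adjusted p = 0.444). The ratio of Fads1 to Fads2 in a well was 12.6, 15.0 and 12.0 untreated and 16.3, 21.4 and 16.9 in conditioned medium, so the groups did not overlap in it. The gene pairs set against each other by a ratio here were chosen after their values were seen, and the ratios carry no test.

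Elongases add carbons to an acyl-CoA, and of the 4 measured here Elovl1 alone passed the test. Elovl1, which extends saturated and monounsaturated very long chains (chromosome 4, 118428093 to 118432953), had 131, 127 and 132 CPM untreated and 105, 101 and 102 CPM in conditioned medium. It fell 1.26-fold (log2 fold change -0.34, SE 0.04, adjusted p = 0.000279), with no overlap and little spread in either group. Elovl6, which takes palmitate to stearate, had 4.39, 4.50 and 3.57 CPM untreated and 5.58, 4.86 and 7.09 CPM in conditioned medium. Its groups did not overlap either, but the difference did not pass (log2 fold change 0.49, SE 0.17, adjusted p = 0.0603), and passed with the replicate number as a block (adjusted p = 0.0272). Elovl5, an elongase of polyunsaturated chains, was 6.65% lower (adjusted p = 0.0998), at 69.2 to 71.5 CPM untreated and 65.1 to 66.3 CPM in conditioned medium. Elovl7 was low, at 1.04 ± 0.036 and 0.798 ± 0.219 CPM (SD, n = 3 each, edgeR adjusted p = 0.361).

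**Figure D2:**
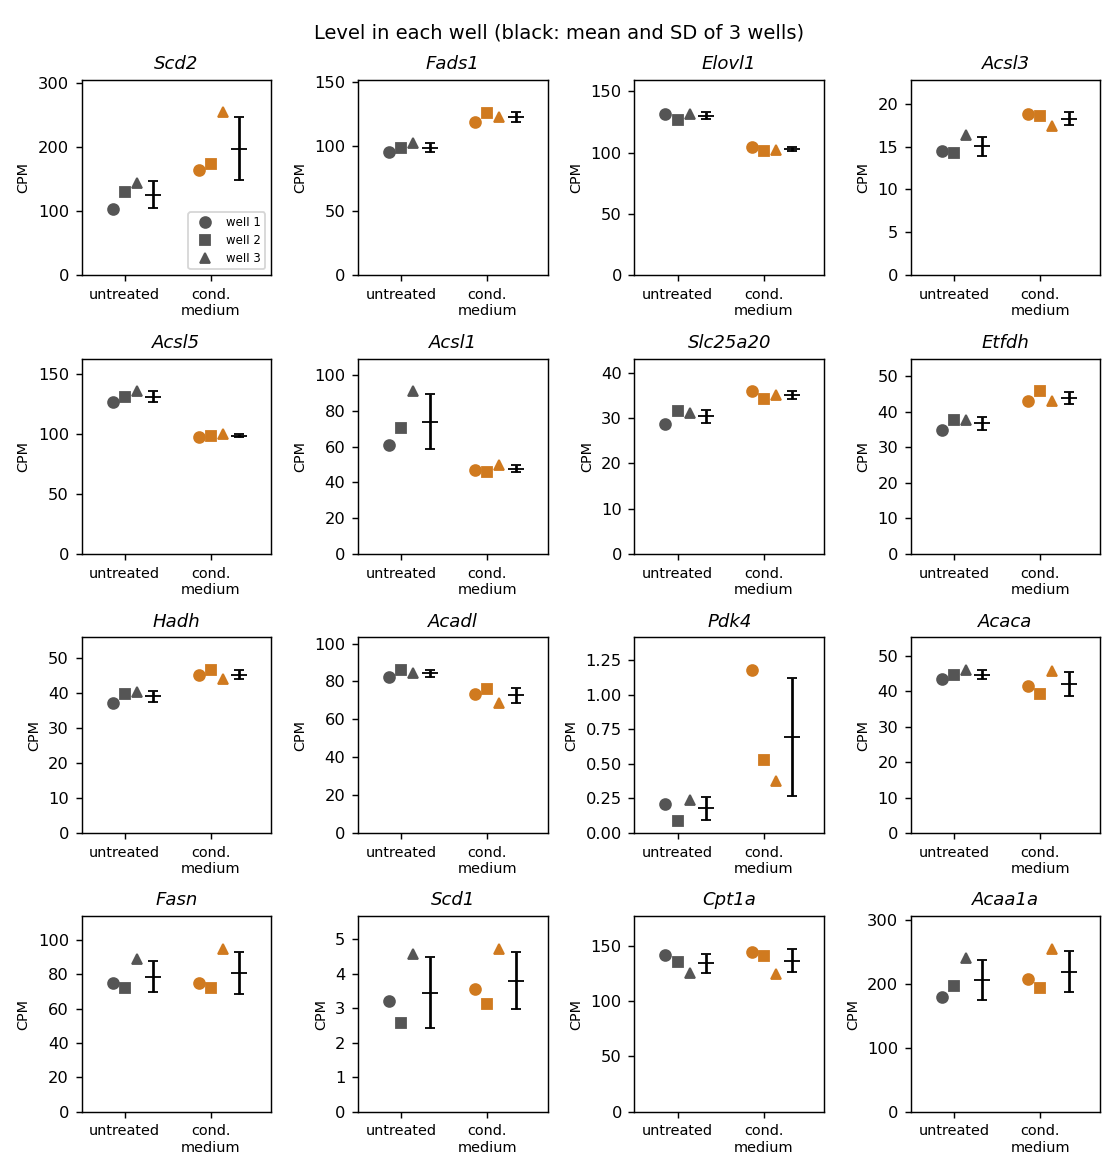
Level of 16 members in each well, in CPM on axes that start at 0, with the mean and SD of 3 wells in black and the symbol giving the well number. The first 11 panels show the members that passed the test, without overlap between groups, and the last 5 show Acaca, Fasn, Scd1, Cpt1a and Acaa1a, which did not pass and whose groups overlap. Well 3 is the highest in both groups for Scd2, Acsl5, Acsl1, Acaca, Fasn, Scd1 and Acaa1a, and the lowest in both for Cpt1a.

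The long-chain acyl-CoA synthetases, which activate fatty acids for every later use, moved in opposite directions: of 4 genes, 1 rose and 2 fell, against 12.6% and 15.2% of all tested genes. Acsl1, the form best known from fat, heart and inflammatory macrophages (chromosome 8, 46471037 to 46536051), had 60.9, 70.3 and 91.1 CPM untreated and 47.0, 46.1 and 49.9 CPM in conditioned medium. Acsl1 fell 1.55-fold (log2 fold change -0.64, SE 0.12, adjusted p = 0.00415), and the untreated wells were far more spread than those in conditioned medium. Acsl5 (chromosome 19, 55251938 to 55297720) had 127, 131 and 136 CPM untreated and 97.8, 98.7 and 99.8 CPM in conditioned medium. It fell 1.33-fold, the fall with the smallest p among the members (log2 fold change -0.41, SE 0.04, adjusted p = 0.000124). Acsl3, an isoform of the endoplasmic reticulum and lipid droplets (chromosome 1, 78657825 to 78707743), had 14.5, 14.3 and 16.3 CPM untreated and 18.8, 18.5 and 17.4 CPM in conditioned medium. It rose 1.21-fold (log2 fold change 0.28, SE 0.08, adjusted p = 0.0230), a call that was lost without untreated well 1 or 2 or conditioned-medium well 1 or 2 (adjusted p = 0.0680 to 0.0911). Acsl4, which favours arachidonate, did not pass (log2 fold change 0.13, adjusted p = 0.351). The counts of Acsl3 relative to Acsl1 were 0.238, 0.203 and 0.179 in the untreated wells and 0.401, 0.401 and 0.348 in conditioned medium. Relative to Acsl5 they were 0.115, 0.109 and 0.120 untreated and 0.193, 0.188 and 0.174 in conditioned medium, so both ratios were separated between the groups.

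In the carnitine shuttle the carrier rose and no change of the transferases was detected. Cpt1a, the gated step of mitochondrial oxidation, had 142, 135 and 125 CPM untreated and 144, 141 and 124 CPM in conditioned medium. The wells of each number were alike across the groups (log2 fold change 0.03, SE 0.07, adjusted p = 0.812), and the 95% interval ran from -8.31% to 13.1%. Cpt2, the transferase of the inner membrane, had a log2 fold change of 0.11 (adjusted p = 0.373). Slc25a20, the carnitine-acylcarnitine carrier (chromosome 9, 108662088 to 108684641), had 28.8, 31.5 and 31.0 CPM untreated and 36.0, 34.2 and 35.1 CPM in conditioned medium. It rose 1.15-fold without overlap (log2 fold change 0.21, SE 0.05, adjusted p = 0.0202), a call lost with DESeq2 (adjusted p = 0.0598) and without untreated well 1 (adjusted p = 0.0768) or conditioned-medium well 1 (adjusted p = 0.0809).

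Mitochondrial oxidation begins with acyl-CoA dehydrogenases that differ in the chain length they prefer, and only Acadl passed the test. Acadl (long chains, chromosome 1, 66830839 to 66863277) had 82.3, 85.9 and 84.6 CPM untreated and 73.6, 76.2 and 68.4 CPM in conditioned medium. It fell 1.16-fold (log2 fold change -0.21, SE 0.05, adjusted p = 0.0118), and not without untreated well 2 (adjusted p = 0.0539). Acadm (medium chains) had 56.2, 59.0 and 59.1 CPM untreated and 63.3, 64.3 and 62.3 CPM in conditioned medium. These groups did not overlap, yet the difference of 0.12 on the log2 scale did not pass (SE 0.04, adjusted p = 0.0628). It passed with the replicate number as a block (adjusted p = 0.0451) and without scaling beyond the total count (adjusted p = 0.00976). The ratio of Acadl to Acadm was 1.47, 1.46 and 1.43 in the untreated wells and 1.16, 1.19 and 1.10 in conditioned medium. Acadvl (very long chains) had 32.5, 36.1 and 33.4 CPM untreated and 33.7, 33.4 and 35.8 CPM in conditioned medium (log2 fold change 0.01, adjusted p = 0.895, 95% interval -7.86% to 10.5%). Acads (short chains) had a log2 fold change of -0.09 (adjusted p = 0.275).

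Of the enzymes that follow, Hadh, the dehydrogenase of medium and short hydroxyacyl chains (chromosome 3, 131233419 to 131272101), had 37.2, 39.8 and 40.1 CPM untreated and 45.1, 46.6 and 44.1 CPM in conditioned medium. Hadh rose 1.16-fold (log2 fold change 0.21, SE 0.05, adjusted p = 0.0117), and all 3 conditioned-medium wells were above the untreated ones. Without untreated well 1 its adjusted p was 0.0516. The mitochondrial trifunctional protein, which carries out the hydratase, dehydrogenase and thiolase steps on long chains, is made of the products of Hadha and Hadhb. Hadha had 166, 167 and 164 CPM untreated and 158, 160.0 and 144 CPM in conditioned medium. Hadhb had 79.6, 80.9 and 72.9 CPM untreated and 69.7, 78.0 and 69.0 CPM in conditioned medium. Both had a log2 fold change near -0.1 (-0.10 with adjusted p = 0.159 for Hadha and -0.11 with adjusted p = 0.244 for Hadhb). Their ratio in a well was 2.08, 2.06 and 2.25 untreated and 2.27, 2.05 and 2.09 in conditioned medium, with the groups overlapping. The thiolase gene Acaa2 had 38.3, 37.4 and 44.3 CPM untreated and 44.8, 44.8 and 41.9 CPM in conditioned medium (adjusted p = 0.195), and its adjusted p was 0.0233 without untreated well 3, the one high untreated well. The hydratase gene Echs1, the isomerase gene Eci1 and the dienoyl-CoA reductase gene Decr1, which handles unsaturated chains, had log2 fold changes of -0.10, 0.08 and -0.05 and adjusted p-values of 0.284, 0.511 and 0.631.

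Electrons from the acyl-CoA dehydrogenases pass through the flavoprotein made by Etfa and Etfb to its oxidoreductase, Etfdh. Etfdh (chromosome 3, 79603788 to 79629500) had 34.7, 37.7 and 37.6 CPM untreated and 43.0, 45.7 and 42.9 CPM in conditioned medium. It rose 1.20-fold (log2 fold change 0.26, SE 0.05, adjusted p = 0.00631) with no overlap, and it passed under each alternative tried. For Etfa the wells were nearly identical, at 50.4, 50.3 and 50.2 CPM untreated and 50.2, 50.4 and 47.3 CPM in conditioned medium. Its partner Etfb was recorded at 1.80 to 2.43 CPM untreated and 2.20 to 2.66 CPM in conditioned medium (adjusted p = 0.518). Per length that is 1.80 CPM per kb for Etfb in untreated wells, against 27.4 CPM per kb for Etfa, although the 2 proteins pair with each other. The count of Etfb is uncertain: 617 of its 1164 exonic bases (53.0%) also belong to another annotated gene on the same strand, Gm45233, which has 0 counts.

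No peroxisomal member passed the test, 0 of 4, against 27.9% of all tested genes. With only 4 genes, that count cannot be set apart from the background. It was also 0 at an unadjusted p under 0.05 in edgeR, and 0 by DESeq2, limma-voom or the replicate block. Acox3, the oxidase of branched chains, was among the steadiest members, at 159, 159 and 161 CPM untreated and 161, 160.3 and 164 CPM in conditioned medium, with a 95% interval of -4.82% to 7.21%. Acaa1a, the peroxisomal thiolase, had 179, 198 and 241 CPM untreated and 209, 193 and 255 CPM in conditioned medium, a spread within groups far larger than the difference (adjusted p = 0.634). Reads of its close paralog Acaa1b, at 0.361 to 0.537 CPM, may be split from it. The bifunctional enzyme gene Ehhadh and the isomerase gene Eci2, which is also mitochondrial, had log2 fold changes of 0.17 (adjusted p = 0.527) and -0.02 (adjusted p = 0.882).

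Pdk4 (chromosome 6, 5483351 to 5496309), a classical target of PPARs whose kinase slows the entry of pyruvate into the citric acid cycle, had the largest fold change of the members and few counts. It had 5, 2 and 6 counts in the untreated wells and 36, 16 and 11 in conditioned medium, or 0.209, 0.0826 and 0.241 CPM and 1.18, 0.525 and 0.379 CPM. The groups did not overlap, but the lowest conditioned-medium well and the highest untreated well were close. Pdk4 rose 3.85-fold (log2 fold change 1.94, SE 0.58, adjusted p = 0.0329), with a wide 95% interval of 56.3% to 848%. Without conditioned-medium well 1 the change was 2.51-fold and did not pass (adjusted p = 0.133). The call was also lost without any 1 of the untreated wells (adjusted p = 0.0529 to 0.121) and with limma-voom (adjusted p = 0.0536), and Pdk4 was not tested with a mean of at least 1 CPM. Among the other kinases and phosphatases of the complex, Pdk1, Pdk2 and Pdk3 rose, 3 of 5 genes (background 12.6% higher). The phosphatase gene Pdp1 was lower with the replicate number as a block (adjusted p = 0.000308, and 0.0566 without it). Pdk1 had 30.5, 32.3 and 30.4 CPM untreated and 54.5, 57.4 and 61.8 CPM in conditioned medium, a 1.86-fold rise (adjusted p = 7.88e-06). Pdk2 (adjusted p = 0.00837) and Pdk3 (adjusted p = 0.0117) had log2 fold changes of 0.44 and 0.41.

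Levels per exon length, which allow genes to be compared with each other, spanned 47.7 CPM per kb for Elovl1 to 0.0505 CPM per kb for Pdk4 in the untreated wells. Elovl1, Acaa1a and Acadl led, at 47.7 ± 1.03, 46.6 ± 7.13 and 42.0 ± 0.895 CPM per kb (SD, n = 3). Elovl1 and Acaa1a did not differ beyond their spread. Etfa (27.4), Acsl5 (27.0), Acaa2 (26.4), Scd2 (23.0), Fads1 (20.6) and Elovl5 (20.0) came next. In conditioned medium the order at the top was Acaa1a (49.6 ± 7.29), Elovl1 (37.7 ± 0.655), Acadl (36.3 ± 1.99) and Scd2 (36.2 ± 9.04), of which the last 3 lay within the SD of Scd2. Scd2 moved from rank 7 to rank 4. The enzymes of de novo synthesis sat lower, with Fasn at 7.18 and Acaca at 2.62 CPM per kb untreated and 7.37 and 2.47 in conditioned medium. Scd1 was at 0.705 CPM per kb and Elovl6 at 0.646 untreated, and Acacb and Pdk4 were the lowest at 0.0554 and 0.0505.

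**Figure D3:**
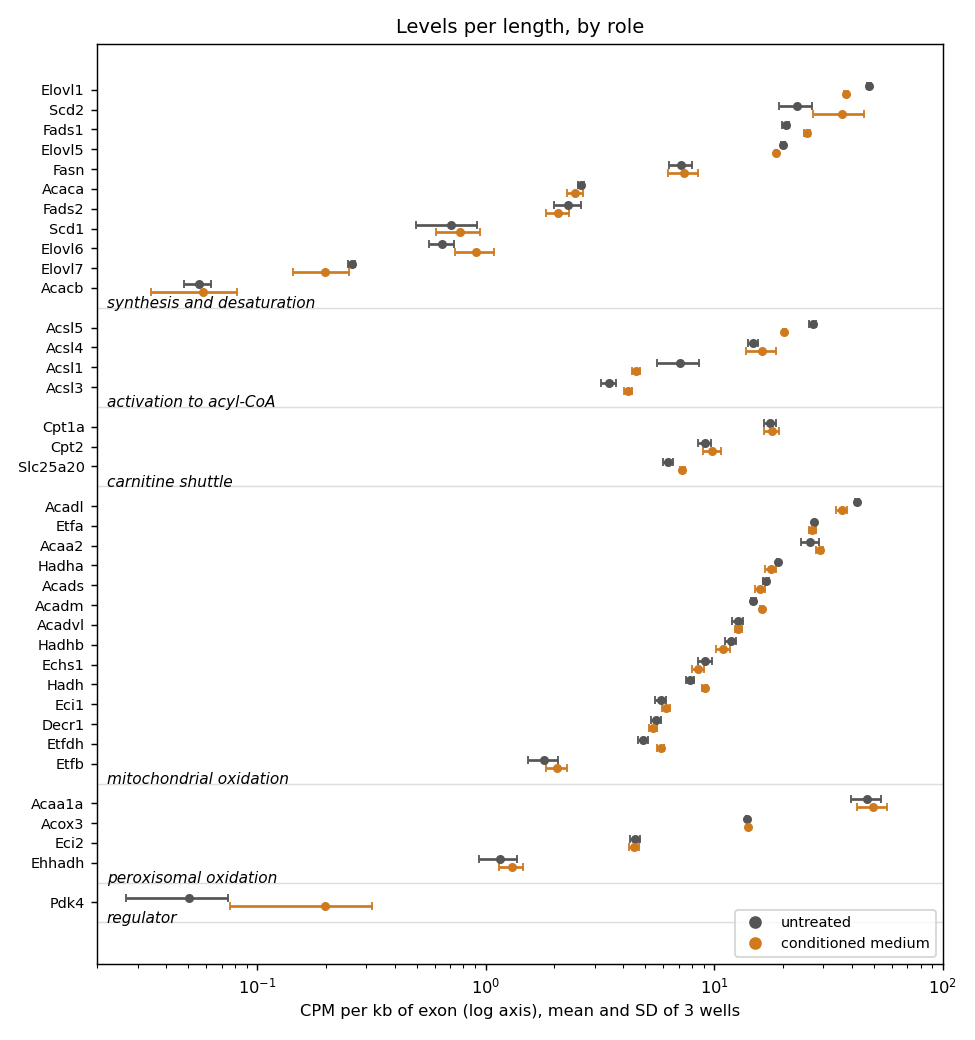
Level of each member per kb of exon on a log axis, by role, as the mean and SD of 3 untreated wells (grey) and 3 conditioned-medium wells (orange). Most pairs of points touch, members of one role differ by far more than the groups do, and Scd2 lies far above Scd1, Fads1 above Fads2 and Etfa above Etfb in both groups.

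The wells of a number resembled each other across the groups for many members. The number 3 well was the highest of its group in both groups for 11 of 37 members (29.7%, against 19.1% of all tested genes): Acaca, Fasn, Scd1, Scd2, Acsl1, Acsl4, Acsl5, Acads, Eci2, Acaa1a and Acox3. Number 2 was the highest in both for 8 members (21.6%, against 12.7%), 6 of them mitochondrial, including Hadha, Hadhb, Acadl and Echs1. Number 1 was the highest in both for Cpt1a alone (2.70%, against 11% of all tested genes). What the numbers stand for is not stated in the labels. With both number 3 wells left out, an alternative added after the data were seen, 8 members were higher and 4 lower. Of all 14020 genes tested in that setting, 1871 were higher and 2209 lower. All 11 calls of members were kept.

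The promoters of these genes were looked at for the letters that lipid regulators and the general factor NF-Y are known to bind. RefSeq windows on GRCm38.p6, from 250 bases before to 50 after a start, were at hand for 32 of 37 members, and Scd1, Scd2, Fads1, Acaa2 and Decr1 were not matched. The NF-Y box, CCAAT on either strand, was in 16 of 32 members (50.0%), against 41.1% of all genes in the same table. It was in 4 of the 5 matched members that rose, in 3 of the 4 that fell and in 9 of 23 that did not pass, a description with no test. The E-box CACGTG, searched on both strands, was in 1 of 32, Elovl5, against 8.09% of all genes. The SREBP element and the DR1 and DR4 repeats of nuclear receptors, each searched as 1 fixed spelling on both strands, were in 0 of 32 members and in 0.0999%, 0.0481% and 0.0148% of all genes. With spellings this rare, 0 of 32 cannot set the members apart from other genes. A missing match says only that these letters are not in these windows.

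The 5 stretches printed here belong to the synthetases that moved in opposite directions, to the falling elongase gene Elovl1, to Pdk4, and to the gap from which Hadha and Hadhb are read in opposite directions. Capitals mark the CCAAT box (ATTGG where it lies on the other strand), and bases annotated as exon are left off. Acsl3, which rose, is shown over chr1:78657675-78657824 (plus strand), with the box 15 bases before the start. Acsl5, which fell, is shown over chr19:55253219-55253368 (plus strand), before a RefSeq start that lies inside the deposited gene, with the box 117 bases before that start. Elovl1 is shown over chr4:118427943-118428092 (plus strand), with the box 35 bases before the start. Pdk4 is shown over chr6:5496310-5496428 (minus strand), with the box 131 bases before the RefSeq start. The gap of 85 bases between Hadha and Hadhb is chr5:30155163-30155247 (plus strand) and holds no box.
Acsl3: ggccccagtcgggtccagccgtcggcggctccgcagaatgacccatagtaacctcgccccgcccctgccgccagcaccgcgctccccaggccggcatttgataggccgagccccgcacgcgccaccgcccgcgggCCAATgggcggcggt
Acsl5: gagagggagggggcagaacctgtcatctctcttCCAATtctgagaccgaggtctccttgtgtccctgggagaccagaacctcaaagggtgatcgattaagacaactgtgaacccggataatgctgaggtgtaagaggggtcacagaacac
Elovl1: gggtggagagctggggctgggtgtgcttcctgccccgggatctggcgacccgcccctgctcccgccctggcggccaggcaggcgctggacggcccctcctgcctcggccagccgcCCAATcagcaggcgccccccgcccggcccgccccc
Pdk4: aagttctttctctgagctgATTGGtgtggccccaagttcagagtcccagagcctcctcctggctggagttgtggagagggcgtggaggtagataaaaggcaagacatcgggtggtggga
Hadha and Hadhb: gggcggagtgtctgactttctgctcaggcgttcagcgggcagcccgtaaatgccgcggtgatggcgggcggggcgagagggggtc
Acsl3 and Acsl5 both hold a box, at different distances, and Acsl3 rose while Acsl5 fell. The starts of Hadha and Hadhb are 86 bases apart, and their ratio in a well, given above, overlapped between the groups. Whether the shared gap bears on that ratio was not tested.

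Other genes of fatty acid metabolism were described from lists drawn up by function, whose counts stand against a background of 12.6% of all tested genes higher and 15.2% lower. Those that supply citrate and acetyl-CoA gave 1 rise in 8: Idh1, a cytosolic source of NADPH, went from 312, 316 and 346 CPM to 448, 453 and 525 CPM (1.46-fold, adjusted p = 0.000409). Pdha1 and Pdhb, of the pyruvate dehydrogenase complex, had log2 fold changes of 0.11 (adjusted p = 0.134) and 0.09 (adjusted p = 0.158). Among 13 tested genes of further elongation and desaturation, 1 rose and 2 fell. Degs1, the desaturase of sphingolipids, fell 1.57-fold from 289.9, 289 and 282 CPM to 184, 197 and 167 CPM (adjusted p = 5.87e-05). Fads3 rose (log2 fold change 0.63, adjusted p = 0.0058) and Hsd17b12, the ketoreductase of the elongation cycle, fell by 0.20 on the log2 scale (adjusted p = 0.0092).

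Of 11 tested genes of the SREBP, LXR and ChREBP systems, 0 rose and 1 fell, with a median log2 fold change of 0.0055. LXRs are nuclear receptors that oxysterols activate and that are known to switch on Srebf1. The LXR gene Nr1h3 fell from 102, 112 and 72.3 CPM to 35.8, 44.8 and 28.4 CPM. That is a 2.63-fold fall (log2 fold change -1.39, SE 0.18, adjusted p = 0.000468) with no overlap. The other LXR gene, Nr1h2, had 99.9, 104 and 112 CPM untreated and 106, 108 and 109 CPM in conditioned medium (log2 fold change 0.03, adjusted p = 0.692). Srebf1 itself had a log2 fold change of 0.01 (adjusted p = 0.960) and Srebf2 of 0.03 (adjusted p = 0.843). Insig1, a partner of the SREBP escort SCAP, had 68.1, 74.3 and 80.3 CPM untreated and 77.4, 77.3 and 98.7 CPM in conditioned medium (adjusted p = 0.202), and rose with the replicate number as a block (adjusted p = 0.0091). Mbtps1, a protease that releases SREBP, had an adjusted p of 0.250.

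Of 14 tested genes of PPAR and AMPK control, 5 rose and 1 fell (background 12.6% and 15.2%). Pparg, the PPAR that drives uptake and storage genes in macrophages, fell 2.39-fold, from 42.5, 39.8 and 31.1 CPM to 15.9, 19.3 and 12.2 CPM (adjusted p = 0.000409). Ppard (log2 fold change 0.40, adjusted p = 0.00146) and Rxra, the shared partner of LXRs and PPARs (0.50, adjusted p = 0.00346), rose. Ppara had at most 1 count in a library and was not tested. Of 10 tested genes of fatty acid uptake and binding, 7 fell and 1 rose (background 15.2% lower and 12.6% higher), with a median log2 fold change of -0.62. Fabp3 fell from 15.7, 17.5 and 19.4 CPM to 2.99, 2.69 and 3.27 CPM (5.88-fold, adjusted p = 1.14e-06), and 9.84% of its exonic bases are shared with the opposite-strand gene Zcchc17. Lpl, lipoprotein lipase, fell 3.66-fold (adjusted p = 4.12e-05) and Slc27a1, a fatty acid transporter, 1.51-fold (adjusted p = 4.11e-05).

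Further oxidation genes were mixed. The mitochondrial list also holds enzymes of branched-chain amino acid breakdown, among them Acad8 and Acadsb, and Hsd17b10 also acts there. In mitochondria 1 of 15 tested genes rose and 1 fell (background 12.6% and 15.2%), namely Acad8 (log2 fold change 0.22, adjusted p = 0.0171) and Hsd17b10 (-0.38, adjusted p = 0.00148). With the replicate number as a block 3 of the 15 rose and 2 fell, where 36.3% of all tested genes changed. Those gained were Acad11 (adjusted p = 0.0694 without and 0.00402 with it) and Acadsb (0.0756 and 0.0212), both higher, and Acot2 (0.109 and 0.0105), which was lower. In peroxisomes 4 of 16 rose and 1 fell (background 12.6% and 15.2%). Pex5, the import receptor of peroxisomal enzymes, rose from 41.6, 40.6 and 42.8 CPM to 58.2, 58.3 and 60.4 CPM (adjusted p = 5.15e-05). Of the acyl-CoA transporters of peroxisomes, Abcd2 rose (log2 fold change 0.37, adjusted p = 0.00193) and Abcd3 fell (-0.23, adjusted p = 0.00521). Of 18 genes of triglyceride and lipid droplets, 4 rose and 5 fell (background 12.6% and 15.2%). Mgll, monoacylglycerol lipase, fell 3.97-fold, from 159.5, 163 and 101 CPM to 34.2, 47.2 and 25.0 CPM (adjusted p = 0.000246). Lpin2, a phosphatidate phosphatase, rose (log2 fold change 0.50, adjusted p = 3.22e-05), and Abhd5, the activator of adipose triglyceride lipase, fell (-0.46, adjusted p = 0.000562). With the replicate number as a block, Tecr of the elongation list was also lower (adjusted p = 0.0350), and Angptl4 (PPAR and AMPK control, 0.0255), Scp2 (peroxisomes, 0.0194) and Vldlr (uptake, 0.0364) were also higher.

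**Figure D4:**
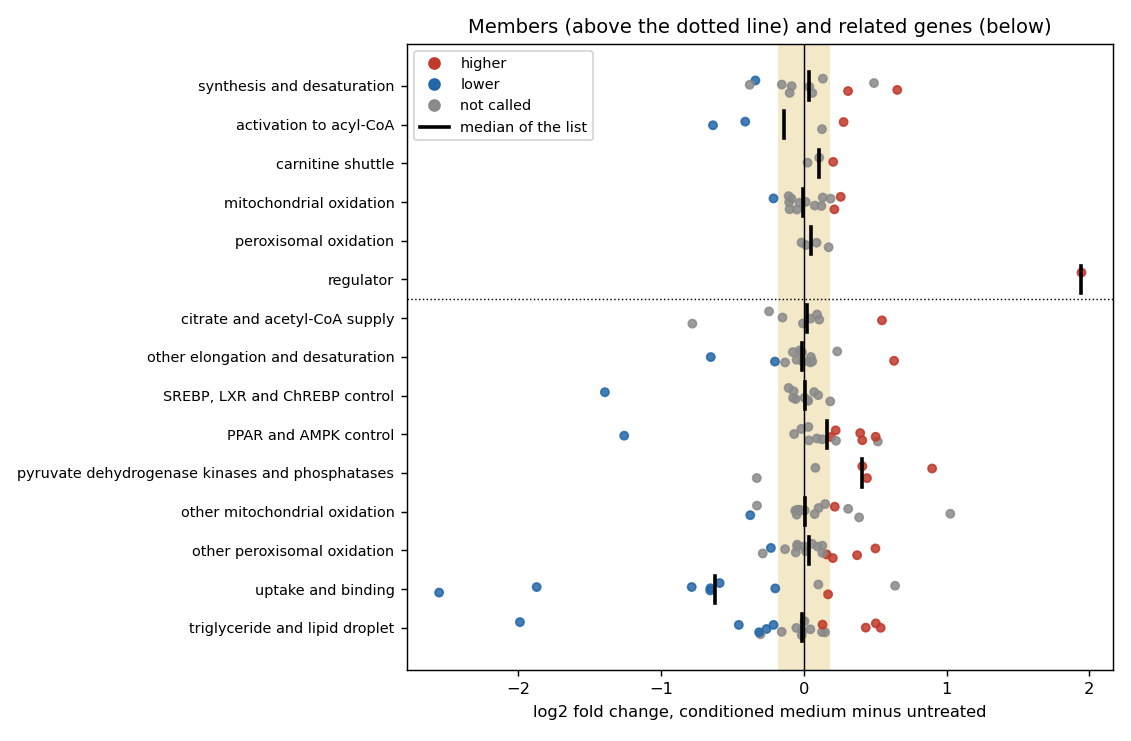
Log2 fold change of each tested gene by list, with the members above the dotted line and related genes below it, red for a rise, blue for a fall, grey for neither, and a black bar for the median of the list. The shaded band holds the middle 50% of all tested genes. The median of uptake and binding is at -0.62 and that of the pyruvate dehydrogenase kinases and phosphatases at 0.41, while those of synthesis and mitochondrial oxidation are near 0.

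The way reads were counted can affect some of these values. Whether the authors counted reads by strand is not given in the sources used here, and 7 members share exonic bases with an expressed gene (a mean of at least 10 counts). Acadvl shares 42.9% of its exonic bases with Dvl2 on the opposite strand, Acsl5 8.31% with Zdhhc6, Acaa1a 6.57% with Myd88, Acsl3 5.60% with Utp14b on its own strand, Etfdh 3.70% with 4930579G24Rik, Elovl1 1.94% with Cdc20 and Echs1 1.71% with Paox.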

How the data were processed

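Messenger RNA enriched with oligo(dT) beads was sequenced from 6 wells, with groups taken from the treatment labels. The authors deposited 1 table of whole-number counts per gene. Per the submitters' processing notes, HISAT2, featureCounts and GRCm38 were used; the sources used here do not give their versions, settings for strand and multi-mapping reads, or the annotation. Symbols and gene types came from GENCODE, and 55154 of 55421 identifiers had a symbol. All members had the same start and end there, and coordinates are those of the deposited table. Promoter windows came from RefSeq.

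From the deposited counts, edgeR 4.0.16 (R 4.3.3) gave TMM-scaled CPM and, after filterByExpr, quasi-likelihood tests of group alone on 13853 genes, with Benjamini-Hochberg adjustment and a threshold of 0.05. CPM per kb used the deposited exon length, and marker sums used CPM without TMM scaling. Standard errors and intervals were derived from the test, and the script was tested on simulated data. The deposited counts of same-group libraries differed by more than sampling noise. The members and lists were chosen with earlier results of these data known. Values per well are given for members that passed and for 10 genes that stand for pathway steps, plus a few more chosen after their values were seen, and of each related list the 3 genes with the smallest p are named, plus a few added likewise.

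The groups share replicate numbers. Deviations from group means of log2 CPM correlated at 0.402, 0.233 and 0.446 between same-numbered wells and at -0.397 to 0.101 otherwise, so the numbers were taken to pair the wells in a fit with the replicate number as a block. The pairing comes from these correlations, not from the labels. Alternatives were limma-voom (limma 3.58.1), DESeq2 1.42.0, RLE scaling or none past the total count, other filters on low counts, the block, and leaving out each library or both number 3 wells.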

Additional observations from a re-analysis of the deposited data

How the results depend on the processing

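Of the 11 members that passed the test, Fads1, Elovl1, Acsl1, Acsl5 and Etfdh passed under all 14 alternatives, and none of the 11 changed direction under any. With the replicate block, 9 members were higher and 4 lower (Elovl6 and Acadm gained), against 5023 genes changed in all (36.3%), and no call among the members was lost. Without scaling beyond the total count, 5 oxidation genes were higher in place of 3 (Acadm and Acaa2 gained), and their median log2 fold change was 0.083 in place of 0.026, with 0.0704 for all tested genes. Elovl6 also passed in that setting (adjusted p = 0.0419), with no low-count filter (adjusted p = 0.0209) and without conditioned-medium well 2 (adjusted p = 0.0410). With both number 3 wells left out, added after the data were seen, the median of the synthesis genes was -0.10, in place of 0.038, and Acaa2 passed (adjusted p = 0.0061).

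Leaving out each library in turn gave 2725 to 3654 changed genes in all, 2 to 7 members higher and 3 to 4 lower. Among synthesis genes 1 to 3 were higher and 1 lower, with a median log2 fold change of -0.104 to 0.107, and the lowest value came without conditioned-medium well 3. Among oxidation genes 1 to 4 were higher and 0 to 1 lower, with a median of 0.0025 to 0.057. The count of higher members fell to 2 without untreated well 1 and to 4 without untreated well 2 or conditioned-medium well 1. Low counts limit Pdk4, Acacb and Elovl7, which were not tested with a mean of at least 1 CPM.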
